A study of Homo sapiens with 12 samples.

Results

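The genes described here are the nuclear-encoded genes of the mitochondrial respiratory chain and ATP synthase, measured as human transcripts in xenograft tumours. They were taken by name: protein-coding human genes whose GENCODE 29 symbol is NDUFA, NDUFB, NDUFC, NDUFS or NDUFV followed by a number, SDHA to SDHD, or begins with UQCR, COX4 to COX8, or ATP5. Of 58243 human genes in the files 88 have such a name, and 82 of these reached 10 counts in at least 3 of the 12 libraries. The 82 are 37 genes of complex I, 4 of complex II, 9 of complex III, 13 of complex IV and 19 of complex V. The remaining 6 were below the minimum. COX4I2, COX6A2, COX7B2 and COX8C were at 0 counts in every library, and ATP5MGL and the read-through gene ATP5MF-PTCD1 had between 0 and 8.

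MCFDCIS is a human breast cell line used as a xenograft model of early, in situ disease. Its cells were placed under the skin of athymic nude mice, which lack T cells but keep other host cells. Tumours had 2 weeks to establish. Palbociclib, which blocks CDK4 and CDK6 and so holds cells before S phase, was then given by mouth each day at 50 mg per kg for 2 weeks. Tumours were taken at the end of treatment or after recovery, for which no duration is stated. There were 4 groups of 3 tumours: palbociclib at the end of treatment, vehicle at the end of treatment, palbociclib after recovery and vehicle after recovery. All groups share the cell line, the type of mouse and the site, which is not the mammary gland. Nothing in the labels says that the 3 tumours of a group came from separate mice, so p-values measure the spread between these samples. RNA came from homogenised whole tumours, so fewer cells and less RNA per cell cannot be told apart.

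The respiratory chain passes electrons from NADH (complex I) and succinate (complex II) through complex III to oxygen at complex IV, and complexes I, III and IV pump protons whose return drives ATP synthesis by complex V. Complex II is made only of nuclear-encoded subunits, while the other complexes also hold subunits made from the mitochondrial genome, so both genomes must supply matching parts. Transcription of the nuclear subunits is known to depend on the factors NRF1, GABP (an ETS factor) and YY1, and on PGC-1 family coactivators. In tumour cells the chain supplies ATP and lets NAD+ and aspartate be made, and low oxygen is known to favour some subunit isoforms over others through HIF. CDK4 and CDK6 inhibitors have been studied for effects on mitochondrial mass and oxidative metabolism in several cancer lines.

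Promoters are shown for 4 members, chosen because they carry the letters of those factors and belong to 4 different complexes. The RefSeq table of promoters (GRCh38.p14, 250 bases before to 50 bases after each start) held 67 of the 82 members. Capitals mark matches to the NRF1 motif, CCGGAAG (ETS) or AAGATGGC (YY1), each searched on both strands, and the sequences read 5′ to 3′ along the gene. The window of NDUFA8, a complex I subunit on the intermembrane-space side, lies at chr9:122159730-122160029 on the minus strand and holds 2 NRF1 matches that share 4 bases. That of SDHB, the iron-sulphur subunit of complex II, is chr1:17053983-17054282 (minus) with 1 ETS and 1 YY1 match. That of UQCRC1, a core protein of complex III, is chr3:48609597-48609896 (minus) with 1 NRF1 and 1 YY1 match. That of ATP5F1C, the gamma subunit that turns inside ATP synthase, is chr10:7787927-7788226 (plus) with 1 NRF1 match.
NDUFA8: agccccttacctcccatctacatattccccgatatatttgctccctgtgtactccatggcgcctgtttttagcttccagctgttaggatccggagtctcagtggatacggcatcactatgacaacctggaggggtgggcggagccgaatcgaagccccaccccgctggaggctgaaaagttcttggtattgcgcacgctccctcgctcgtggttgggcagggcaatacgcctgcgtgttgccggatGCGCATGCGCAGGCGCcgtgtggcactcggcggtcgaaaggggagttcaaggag
SDHB: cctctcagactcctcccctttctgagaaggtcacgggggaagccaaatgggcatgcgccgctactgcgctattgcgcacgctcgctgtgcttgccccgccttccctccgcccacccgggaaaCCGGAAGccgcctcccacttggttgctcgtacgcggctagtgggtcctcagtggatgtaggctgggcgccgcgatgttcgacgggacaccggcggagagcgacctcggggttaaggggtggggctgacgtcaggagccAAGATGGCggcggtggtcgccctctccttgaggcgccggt
UQCRC1: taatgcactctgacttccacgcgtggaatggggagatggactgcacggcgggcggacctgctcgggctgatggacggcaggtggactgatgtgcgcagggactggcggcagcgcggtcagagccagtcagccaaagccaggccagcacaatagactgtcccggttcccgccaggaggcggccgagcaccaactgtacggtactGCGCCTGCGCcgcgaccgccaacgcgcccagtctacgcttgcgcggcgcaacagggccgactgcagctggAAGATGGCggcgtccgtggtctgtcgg
ATP5F1C: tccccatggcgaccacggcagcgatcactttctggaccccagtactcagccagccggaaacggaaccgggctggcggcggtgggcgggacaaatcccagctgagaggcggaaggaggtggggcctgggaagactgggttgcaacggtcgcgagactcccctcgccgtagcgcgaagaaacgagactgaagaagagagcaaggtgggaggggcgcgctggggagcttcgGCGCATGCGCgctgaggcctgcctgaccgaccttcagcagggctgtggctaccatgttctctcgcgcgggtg

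Among the 67 member promoters, 16 (23.9%) held the NRF1 letters, against 8.58% of 15843 protein-coding promoters of the same length. The ETS letters stood in 20 (29.9%, against 14.2% of all promoters) and the YY1 letters in 11 (16.4%, against 3.91%). The E2F letters TTTCCCGC or TTTGGCGC were in 5 (7.46%, against 3.06%). The HIF core ACGTG was in 17 (25.4%, against 23.7%), and TTTGAA, the letters of the cell cycle element CHR, in 3 (4.48%, against 12.1%). A match describes the letters in this window only.

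The 82 members together took between 0.543% and 0.716% of the human counts of a library. Depth was 6613880 to 12352064 human counts per library, and the median count of a member in a library was 527.5, with a lowest of 3 and a highest of 8136. Levels below are in CPM, a gene's share of the human gene counts of its library after TMM scaling (trimmed mean of M-values), and per kilobase of the principal transcript where genes are compared with each other.

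Per kilobase the mean level over the 12 tumours ran from 1.03 CPM per kb for COX6B2, known as the testis isoform of a complex IV subunit, to 259 for ATP5F1B, the catalytic beta subunit of ATP synthase. The next levels were 246 CPM per kb for COX4I1, the ubiquitous isoform of subunit 4, and 226 for COX6B1. Complex IV had the highest median level (110.9 CPM per kb), ahead of complex V (72.4), complex III (47.0), complex I (38.7) and complex II (32.6). Levels spread widely within each complex, from 1.96 to 197 CPM per kb in complex III and from 5.79 to 57.6 in complex II, so these medians do not order the single genes.

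The ubiquitous isoforms carried nearly all counts of the isoform pairs. COX7A1, the heart and muscle isoform, was at 1.69 CPM per kb, while COX7A2, its ubiquitous counterpart, was at 111 and COX7A2L, a factor of supercomplex assembly, at 94.3. COX6A1 was at 55.8 CPM per kb and its muscle counterpart COX6A2 had no count. COX4I2, the isoform known to be raised by low oxygen, had no count in any of the 12 tumours, whereas COX4I1 had 149 to 222 CPM. Of the 3 genes for the same ring subunit c of ATP synthase, ATP5MC3 was highest at 180.0 CPM per kb, with ATP5MC1 at 111 and ATP5MC2 at 72.2.

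Low values per kilobase need care with the annotation. The principal transcript is annotated at 13566 bases for SDHC and 11819 for NDUFS1, which puts SDHC at 5.79 and NDUFS1 at 6.52 CPM per kb although their levels were 67.6 to 112 and 63.6 to 90.5 CPM. In 5 members at least 50% of the exonic bases also belong to another gene: NDUFV2 (82.9%), NDUFA7 (78.7%), NDUFB8 (71.7%), ATP5PO (70.3%) and NDUFA11 (67%). How reads on shared bases were counted is not stated, so the levels of these 5 are uncertain. Members with pseudogene copies are uncertain in the same way, most of all SDHA, whose named pseudogenes held 3036 counts beside 11239 of SDHA itself. Median overlap was 15.6% for the 20 members lowest per kilobase and 0% for the 20 highest.

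**Figure D1:**
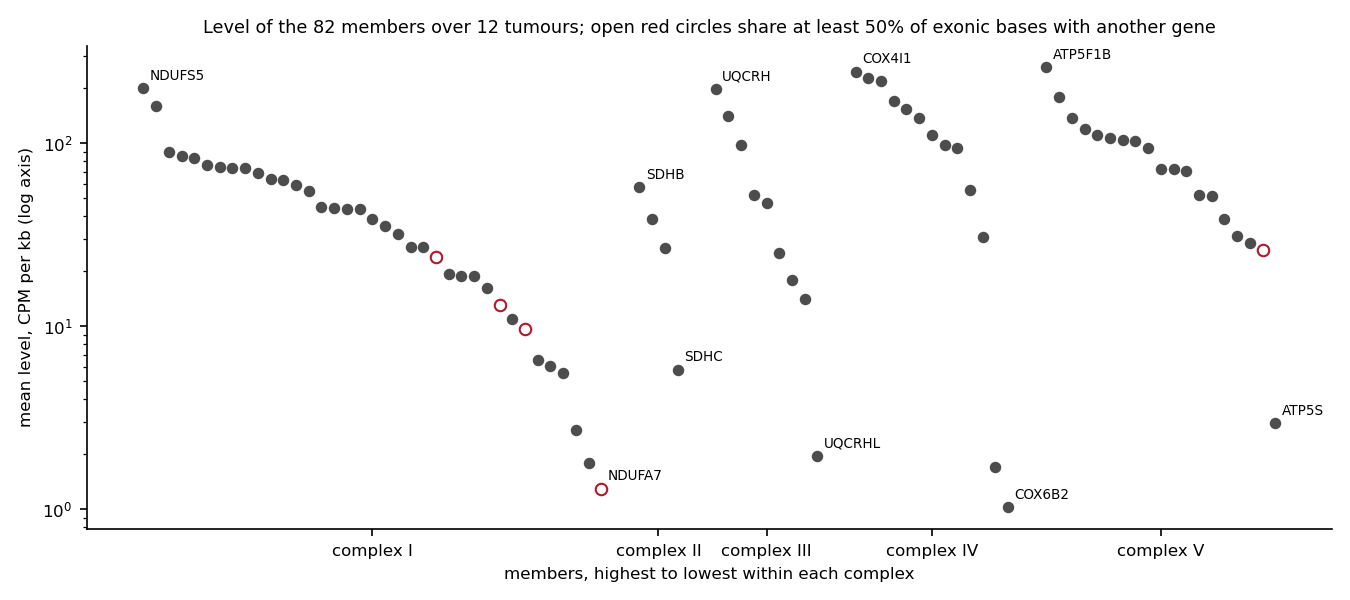
Mean level of each of the 82 members over 12 tumours (CPM per kb of principal transcript, log axis), ordered within each complex, with open red circles for the 5 members that share at least 50% of their exonic bases with another gene. ATP5F1B is highest at 259 and COX6B2 lowest at 1.03 CPM per kb.

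At the end of treatment no respiratory chain gene was called different between palbociclib and vehicle tumours. The 82 members summed to 6261, 6220 and 6050 CPM in palbociclib tumours, against 6917, 5559 and 5662 CPM in vehicle tumours. The palbociclib tumours lay within the range of the vehicle tumours, of which the first was high and the other two low. None of the 82 passed (edgeR quasi-likelihood test, adjusted p under 0.05), while 1.84% of the 18628 genes tested did, 0.14% higher and 1.7% lower. None reached an unadjusted p under 0.05 either, while 9.87% of all genes did, 3.18% higher and 6.68% lower. DESeq2's Wald test called 0 members in this comparison and in each of the other 4.

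The median log2 fold change of the members was 0.03, that of all genes 0.00, with the members between -0.35 and 0.42. For 79 of the 82 the 95% interval lay within a log2 change of 1 in either direction, that is a change of 2-fold. The same held for 64.8% of all genes tested. Without vehicle tumours 2 and 3, whose mitochondrial ribosomal RNAs took 4.61% and 10.6% of human counts, the median was -0.15, with the lone vehicle tumour assumed to vary like the other groups.

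Complex I had a median log2 fold change of 0.02 at the end of treatment, and 0 of its 37 genes passed. NDUFV1, which binds NADH and the flavin, was at 127, 113 and 113 CPM in palbociclib tumours and 142, 113 and 109 CPM in vehicle tumours, a log2 fold change of -0.04 ± 0.11 (SE). The iron-sulphur subunit NDUFS1 was at 0.04 ± 0.13, the quinone-site subunit NDUFS7 at 0.36 ± 0.23, and the membrane-arm subunit NDUFA1 at 0.02 ± 0.13. The groups overlapped for each of these 4. NDUFS7 is the least certain, with 4.1 to 7.52 CPM and 37.9% of its exonic bases shared with another gene.

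NDUFB8, an accessory subunit often used as a protein marker of assembled complex I, had the lowest fold change of all members and the smallest p. It was at 7.81, 7.42 and 8.08 CPM in palbociclib tumours and 9.68, 9.76 and 10.4 CPM in vehicle tumours, without overlap (log2 fold change -0.35 ± 0.18, adjusted p = 0.558). NDUFA8 had the highest, at 24.8, 21.2 and 25.1 CPM in palbociclib tumours and 20.3, 16.9 and 15.8 CPM in vehicle tumours (0.42 ± 0.24, adjusted p = 0.655). Neither passed. Groups did not overlap for 5 members that were higher with palbociclib (NDUFA8, NDUFB7, NDUFV3, SDHC and ATP5PO) and for 2 that were lower (NDUFB8 and UQCRHL), while over all genes 9.39% and 11.3% did not overlap in these directions.

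Of complex II, the flavin subunit SDHA was at -0.06 ± 0.10, the iron-sulphur subunit SDHB at -0.17 ± 0.14 and the membrane anchor SDHD at -0.06 ± 0.17 on the log2 scale, and 0 of 4 passed. The other anchor, SDHC, was at 77.1, 84.9 and 95.6 CPM in palbociclib tumours and 67.6, 74.1 and 74.4 CPM in vehicle tumours, without overlap (0.25 ± 0.16, adjusted p = 0.692). None of the 9 complex III genes passed: the core proteins UQCRC1 and UQCRC2 were at -0.25 ± 0.17 and -0.01 ± 0.13, the Rieske iron-sulphur protein UQCRFS1 at -0.07 ± 0.14 and the small subunit UQCRQ at 0.14 ± 0.13. UQCRHL, a gene derived by retrotransposition from UQCRH, had the smallest p of this complex (-0.33 ± 0.22, adjusted p = 0.736) at 3.37 to 5.36 CPM.

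Complex IV had the narrowest range, with log2 fold changes between -0.11 and 0.13 for its 13 genes. COX4I1 was at 167, 173 and 175 CPM in palbociclib tumours and 187, 149 and 164 CPM in vehicle tumours (0.04 ± 0.13). The nuclear subunits COX5A and COX5B were at 0.09 ± 0.13 and -0.02 ± 0.10, and COX6C, with the smallest p of the complex, at 0.09 ± 0.13 (adjusted p = 0.914). The small subunits COX6A1, COX7A2 and COX8A were at -0.10, -0.05 and -0.11, and COX7A2L at 0.09. COX7A1 had a wide error (0.07 ± 0.50, at 0.479 to 2.44 CPM). NDUFA4, named for complex I but placed by later structural work in complex IV, was at 0.08 ± 0.13.

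Complex V had 15 of 19 fold changes above 0, with a median of 0.05 and 0 passing. The catalytic core subunits ATP5F1A and ATP5F1B were at 0.03 ± 0.14 and 0.03 ± 0.14, and the central stalk subunit ATP5F1C at 0.03 ± 0.14. The ring genes ATP5MC1, ATP5MC2 and ATP5MC3 were at 0.09, 0.13 and 0.07. ATP5IF1, the inhibitor that stops the enzyme from running backwards, had the smallest p of the complex, with 55.5, 61 and 64.3 CPM in palbociclib tumours and 56.9, 49.8 and 47 CPM in vehicle tumours (0.23 ± 0.13, adjusted p = 0.64). Its groups overlapped only through the first vehicle tumour. Summed over the complex, ATP synthase genes were at 2302 ± 38.9 CPM in palbociclib tumours and 2209 ± 329 CPM in vehicle tumours (SD, n = 3 each), and complex I genes at 1744 ± 44.1 CPM in palbociclib tumours and 1702 ± 186 CPM in vehicle tumours.

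**Figure D2:**
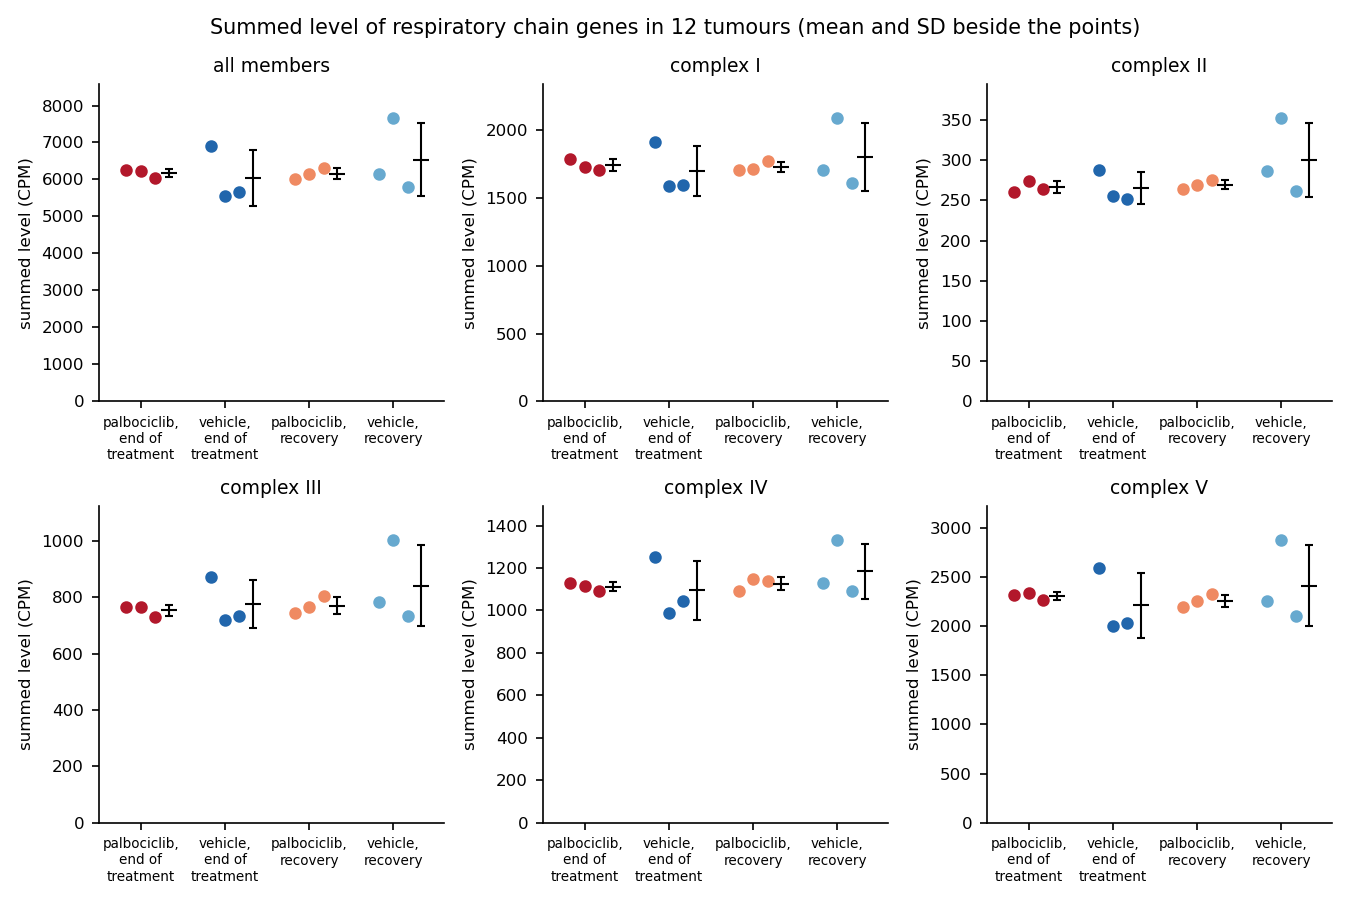
Summed level (CPM) of all 82 members and of each complex in the 12 tumours, with the mean and SD of each group of 3 beside its points. The palbociclib tumours lie close together in every panel, and the first vehicle tumour at the end of treatment and the second after recovery are the highest of their groups.

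After recovery 0 of the 82 members passed between palbociclib and vehicle tumours, and 0 reached an unadjusted p under 0.05. Over all genes only 0.00537% passed, that is 1 of 18628, and 8.66% had an unadjusted p under 0.05, 3.21% higher and 5.45% lower. The members summed to 6004, 6146 and 6314 CPM in palbociclib tumours, against 6154, 7650 and 5797 CPM in vehicle tumours, where the second tumour was the highest of all 12. The median log2 fold change was -0.09, against -0.00 over all genes, with 63 of 82 below 0 and members between -0.43 and 0.45. Without the second vehicle tumour the median was 0.04, so its sign rested on that tumour.

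The lowest fold change after recovery was that of ATP5PF, the coupling factor of the peripheral stalk, at 19.6, 23.1 and 20.1 CPM in palbociclib tumours and 24.3, 40.6 and 19.2 CPM in vehicle tumours (-0.43 ± 0.21, adjusted p = 0.578). The second vehicle tumour was far above the others, which lay just above and just below the palbociclib range, and without it the value was -0.07. NDUFA13, a complex I subunit also known as GRIM-19, had the highest (0.45 ± 0.32, adjusted p = 0.631) at 1.6 to 3.51 CPM. NDUFB5, with the smallest p of complex I, was at 71.9, 75.7 and 75.5 CPM in palbociclib tumours and 82.3, 98.3 and 76 CPM in vehicle tumours, without overlap (-0.20 ± 0.12, adjusted p = 0.59).

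In the other complexes the smallest p belonged to SDHC (-0.26 ± 0.16), UQCR10 (-0.18 ± 0.12) and COX7B (-0.12 ± 0.10), with adjusted p of 0.594, 0.626 and 0.669. The complex medians lay between -0.23 for complex II and -0.06 for complex I. Complex II summed to 264, 269 and 275 CPM in palbociclib tumours and 286, 352 and 262 CPM in vehicle tumours, with the second vehicle tumour again the highest. NDUFV1 was the only member higher in every palbociclib tumour than in every vehicle tumour (0.09 ± 0.11) and NDUFB5 the only one lower, while 6.32% of all genes were higher without overlap and 5.51% lower.

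The difference between both palbociclib effects, recovery minus end of treatment, had 0 of 82 members passing, against 0.22% of all genes. Its median over the members was -0.12, with 64 below 0, and 0.01 over all genes. SDHC was the only member with an unadjusted p under 0.05 (-0.51 ± 0.22, adjusted p = 0.922), against 5.22% of all genes, 3.46% higher and 1.77% lower. The lowest value was that of NDUFA8 (-0.66 ± 0.34, adjusted p = 0.947), which was -0.29 without the second vehicle recovery tumour, and the highest that of NDUFA13 (0.62 ± 0.45). UQCRHL, COX7A2L and ATP5F1E had the smallest p of their complexes, at 0.43 ± 0.31, -0.25 ± 0.20 and -0.24 ± 0.18 (adjusted p = 0.947 for each). Without the second vehicle recovery tumour the median was 0.01, and without vehicle tumours 2 and 3 at the end of treatment it was 0.075.

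Between the end of treatment and recovery, the members in palbociclib tumours had a median log2 fold change of 0.01. None of the 82 passed, against 2.82% of all genes, 2.36% higher and 0.467% lower. At an unadjusted p under 0.05 there were 4 members, 2 higher and 2 lower, against 14.4% of all genes, 8.81% higher and 5.55% lower. NDUFA6, a complex I subunit of the LYR family that binds acyl carrier protein, was at 22.7, 21.5 and 25 CPM in recovery and 16, 20.3 and 16 CPM at the end of treatment (0.41 ± 0.14, adjusted p = 0.181). UQCRC1 was at 193, 186 and 234 CPM in recovery and 166, 163 and 143 CPM at the end of treatment (0.38 ± 0.17, adjusted p = 0.339). In both genes the 2 stages did not overlap.

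UQCRC1 passed in 2 of 20 alternative fits of this comparison, with an adjusted p of 0.0314 when only palbociclib tumours were fitted and 0.0431 without the second vehicle recovery tumour. The 2 lower members were NDUFB5 (-0.26 ± 0.12) and UQCRB (-0.25 ± 0.11). SDHA, which feeds electrons from succinate, was at 97.2, 93.9 and 98.8 CPM in recovery and 86.2, 89.7 and 80.1 CPM at the end of treatment (0.18 ± 0.10, adjusted p = 0.471), without overlap, while its anchor SDHC was lower without overlap (-0.27 ± 0.15). COX6B1 (0.16 ± 0.11) and ATP5S (-0.28 ± 0.14), an assembly-related protein rather than a subunit, had the smallest p of complexes IV and V. The extremes were COX6B2 (0.47 ± 0.61) and NDUFA7 (-0.43 ± 0.48), both below 3 CPM in every tumour. Stages did not overlap for 6 members that were higher in recovery and 9 that were lower, against 14.9% and 14.2% of all genes.

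In vehicle tumours the members had a median log2 fold change of 0.11 from the end of treatment to recovery, against -0.00 over all genes, with 64 of 82 above 0. None passed, and 0% of all genes did. At an unadjusted p under 0.05 there were 4, all higher, against 14.4% of all genes, 7.97% higher and 6.46% lower. They were NDUFA8 (0.61 ± 0.24), NDUFA6 (0.34 ± 0.14), COX6B1 (0.26 ± 0.11) and UQCR10 (0.28 ± 0.13), with adjusted p from 0.326 to 0.337. NDUFA8 was at 25, 39.4 and 16.5 CPM in recovery and 20.3, 16.9 and 15.8 CPM at the end of treatment. The second recovery tumour was the highest and the third lay within the range of the earlier stage. Without that second tumour NDUFA8 was at 0.24 and the median of the members at -0.02, and without vehicle tumours 2 and 3 of the end of treatment the median was -0.071.

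NDUFA6 was the only member higher in recovery without overlap in both arms, with 20.9, 25.5 and 21 CPM in recovery and 16.8, 17.8 and 18.8 CPM at the end of treatment in vehicle tumours. NDUFA10, a nucleotide-kinase-like subunit of complex I, was the only one lower without overlap in both arms. It was at -0.15 ± 0.09 in palbociclib tumours and -0.17 ± 0.10 in vehicle tumours. In the vehicle arm 1 member was higher without overlap and 3 were lower (NDUFA10, NDUFV2 and NDUFA13), against 6.7% and 8.03% of all genes. SDHC (0.24 ± 0.16) and ATP5F1D (0.36 ± 0.17) had the smallest p of complexes II and V, and NDUFA7 the lowest fold change (-0.63 ± 0.53).

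**Figure D3:**
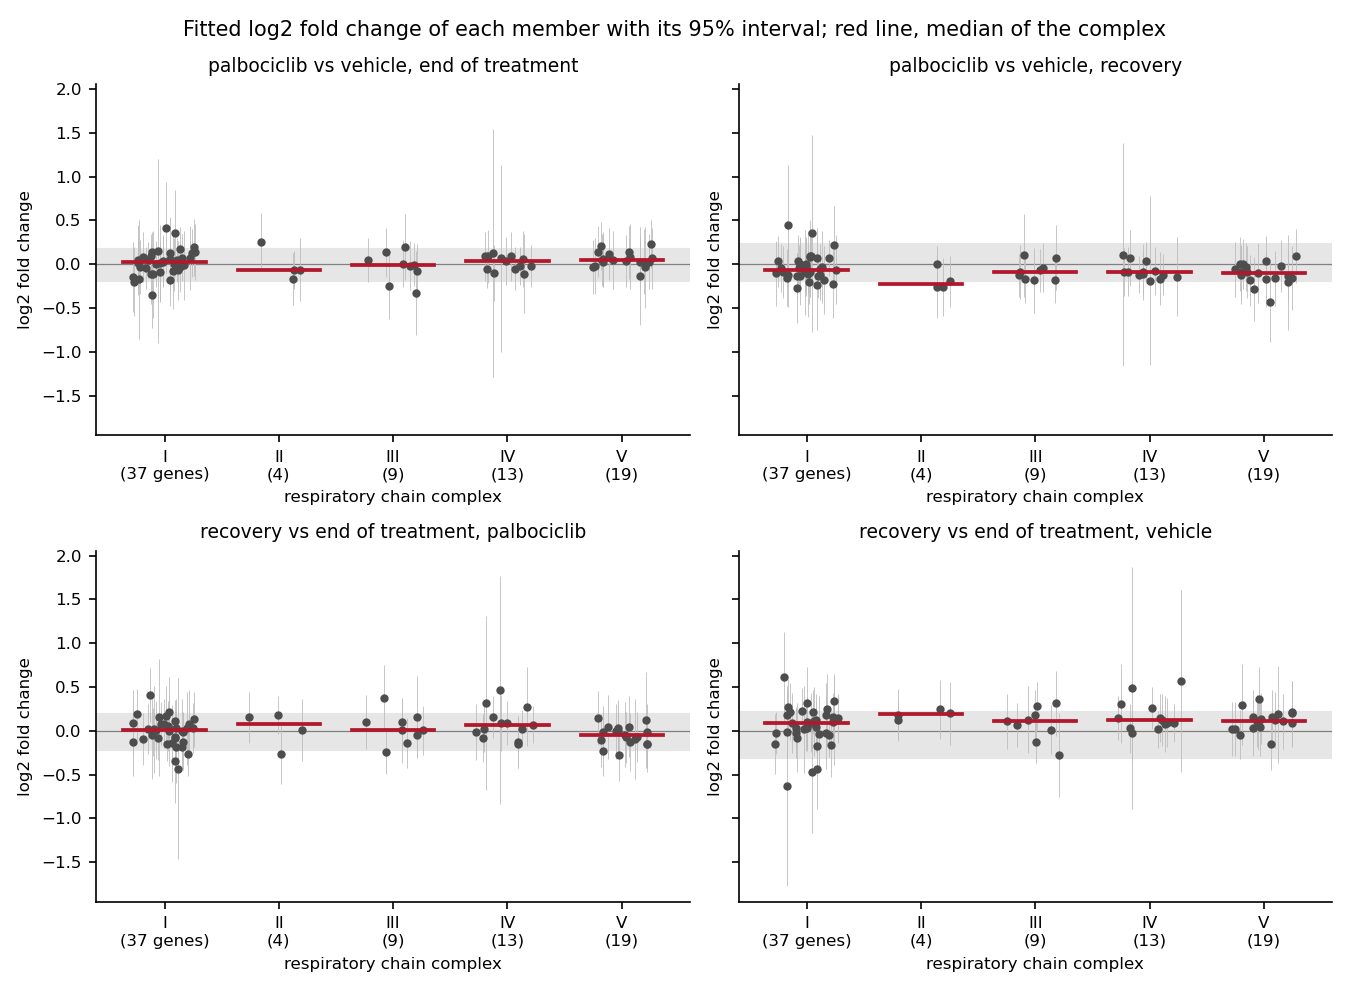
Fitted log2 fold change of each of the 82 members by complex in 4 comparisons, with 95% intervals; red lines are complex medians and the grey band the interquartile range of all 18628 genes tested. Member values lie between -0.35 and 0.42 at the end of treatment, and complex medians are between -0.23 and -0.06 after recovery.

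In each vehicle group 1 tumour lay above the rest of its group for most members at once. The second vehicle recovery tumour was the highest of all 12 for 51 of the 82 members (62.2%), against 30.4% of all genes tested, and the lowest for 5 (6.1%), against 32.4%. Its log2 level exceeded the mean of the other two of its group for 74 members (90.2%), against 48.1% of all genes, with a median difference of 0.34. The first vehicle tumour at the end of treatment exceeded the mean of the other two of its group for 72 members (87.8%), against 50.7% of all genes, with a median of 0.26. Both held for 68 members (82.9%) and for 27.2% of all genes. Both tumours were picked as having the highest summed member level of their groups, so these counts partly restate that choice. At the end of treatment the first vehicle tumour was the highest of the 12 for 13 members (15.9%), against 5.04% of all genes. Vehicle tumours 2 and 3 of that stage were each the lowest for 18 members (22%), against 7.7% and 7.19% of all genes. They also had the largest shares of counts in rows without a gene name (61.9% and 69.1%), whose part was not tested. By complex, the second vehicle recovery tumour was the highest of the 12 for 22 of 37 genes of complex I, 3 of 4 of complex II, 4 of 9 of complex III, 7 of 13 of complex IV and 15 of 19 of complex V. On a first principal component of the members alone, with 47.1% of their variance, it stood at 3.59 and the other 11 tumours between -1.35 and 0.988. The second vehicle recovery tumour and the first vehicle tumour at the end of treatment also had the highest sums of some related gene sets, not of all. They were at 3612 and 2895 CPM for mitochondrial ribosomal proteins, 1617 and 1446 for the tricarboxylic acid cycle, and 576 and 552 for complex I assembly factors. For complex III assembly factors the second vehicle recovery tumour was the lowest of the 12 (168 CPM). The first vehicle tumour at the end of treatment was not high for complex II assembly factors. It was at 34.1 CPM there, against 39.4 CPM in the second palbociclib tumour of that stage. For regulators of mitochondrial biogenesis it was at 693 CPM, below the 704 CPM of the first palbociclib recovery tumour. These are descriptions of single tumours, with no test.

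Few members went the other way. In the second vehicle recovery tumour COX7A1 was lower than the mean of its group's other tumours by a log2 difference of -1.77, NDUFA7 by -0.76, NDUFV2 by -0.66 and NDUFA13 by -0.51. All 4 are low in level or share bases with other genes. The largest positive differences were COX6B2 (1.07), NDUFB9 (1.00), NDUFA8 (0.95) and ATP5PF (0.90). COX6B2 is low in level as well, at 0.778 to 2.49 CPM in vehicle recovery tumours, with 36.3% of its exonic bases shared.

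The same tumour stood apart over all genes, at 113 on a first principal component that held 42.8% of the variance, with the other 11 between -37.6 and 14.2. Its TMM factor was 0.859, against 0.957 to 1.06 in the others, so its CPM values depend on this scaling. As a share of human counts without TMM, its members took 0.657%, below the first vehicle tumour at the end of treatment (0.716%) and the first palbociclib tumour at the end of treatment (0.664%). In its own group it was still the highest, with 0.623% and 0.584% in the other two. Its mouse share of counts was 16.7%, within the 14.2% to 25.4% of all libraries, and its share of counts in rows without a gene name was the lowest of the 12. Their part in the result was not tested.

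The median SD of a member's log2 level was 0.09 in palbociclib tumours and 0.18 in vehicle tumours at the end of treatment, and 0.11 in palbociclib tumours and 0.22 in vehicle tumours after recovery. Over all genes it was 0.16 in palbociclib tumours and 0.21 in vehicle tumours at the end of treatment, and 0.17 in palbociclib tumours and 0.34 in vehicle tumours after recovery. Each vehicle group held 1 high tumour. The remaining vehicle tumours at the end of treatment had member sums of 5559 and 5662 CPM, no further apart than the palbociclib tumours of that stage. After recovery the remaining vehicle tumours had 6154 and 5797 CPM, further apart than the palbociclib tumours of that stage (6004 to 6314 CPM). No SD was computed without the high tumours. The difference in spread was not tested.

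**Figure D4:**
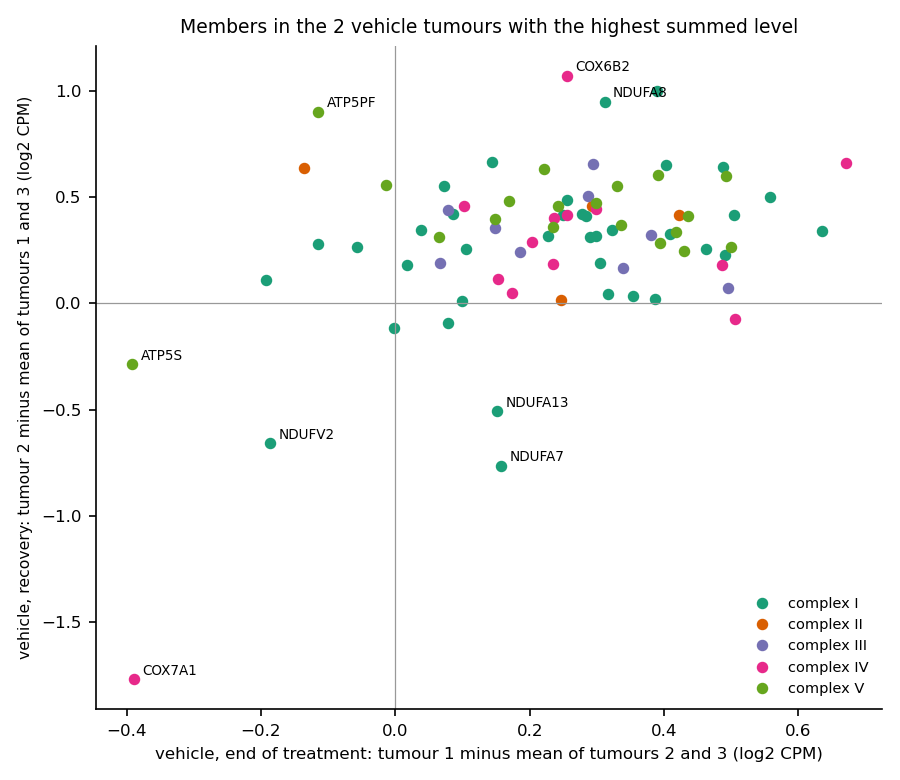
For each member, the log2 CPM of the first vehicle tumour at the end of treatment minus the mean of the other two of its group (horizontal), against the same difference for the second vehicle recovery tumour (vertical), coloured by complex. Most points, 68 of 82, lie above 0 on both axes. The tumours shown were picked as having the highest summed member level of their groups.

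Of 4 further respiratory chain genes that the names do not take in, 1 passed, NDUFA4L2. It is a paralogue of NDUFA4 that is known as a HIF target. Its level fell at the end of treatment to 19.4, 24.3 and 20.7 CPM in palbociclib tumours, against 60.7, 64.1 and 62.6 CPM in vehicle tumours, without overlap (-1.54 ± 0.32, adjusted p = 0.0286). In palbociclib tumours after recovery it was at 54.2, 88.5 and 35.9 CPM, higher than at the end of treatment (1.47 ± 0.31, adjusted p = 0.0301). In vehicle recovery tumours it was at 65.5, 136 and 110.1 CPM, and the palbociclib effect there did not pass (-0.80 ± 0.30, adjusted p = 0.573). The difference between both palbociclib effects did not pass either (0.74 ± 0.43, adjusted p = 0.947).

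Its paralogue NDUFA4 was at 131, 124 and 113 CPM in palbociclib tumours and 138, 102 and 106 CPM in vehicle tumours at the end of treatment. The other 3 genes of that list did not pass in any comparison: cytochrome c (CYCS) was at 0.15 ± 0.15, cytochrome c1 (CYC1) at -0.17 ± 0.19 and the acyl carrier protein NDUFAB1 at 0.02 ± 0.16 at the end of treatment. The NDUFA4L2 call at the end of treatment was kept in 10 of 20 alternative fits and in 4 of the 12 fits that left out 1 library, with log2 fold changes between -1.65 and -1.47 and adjusted p between 9.61e-18 and 0.389 over the alternatives.

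NDUFA4L2 also stands in a list of HIF-linked mitochondrial genes, of which 12 of 13 were tested. At the end of treatment 4 of these 12 were lower in palbociclib tumours and 0 higher, against 1.7% and 0.14% of all genes, with a list median of -0.18. BNIP3, a mitophagy receptor, was at 27.3, 28.5 and 27.8 CPM in palbociclib tumours and 60.0, 85.8 and 70.2 CPM in vehicle tumours (-1.37 ± 0.18, adjusted p = 0.000698). PDK1, the kinase that holds back pyruvate dehydrogenase, was at 30.0, 39.3 and 29.1 CPM in palbociclib tumours and 63.3, 92.1 and 82 CPM in vehicle tumours (-1.27 ± 0.19, adjusted p = 0.0019). BNIP3L, another mitophagy receptor, also passed (-0.70 ± 0.16, adjusted p = 0.0327), a call kept in 11 of 20 alternative fits and in 5 of the 12 that left out 1 library, with adjusted p up to 0.893. In each of these 4 genes the groups did not overlap, against 11.3% of all genes that were lower without overlap. Of the 12, 3 were higher without overlap, against 9.39% of all genes. Of the 8 that did not pass, PDK3, another pyruvate dehydrogenase kinase (0.47 ± 0.15, adjusted p = 0.196), and LONP1, a matrix protease (-0.33 ± 0.13, adjusted p = 0.338), had the smallest p. HIGD1A, HIGD2A, ISCU, CHCHD2, CHCHD4 and MXI1 lay between -0.24 and 0.18.

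In palbociclib tumours BNIP3 (1.28 ± 0.18, adjusted p = 0.000984) and PDK1 (1.03 ± 0.19, adjusted p = 0.00721) were higher in recovery than at the end of treatment, as was NDUFA4L2, so 3 of 12 were higher and 0 lower, against 2.36% and 0.467% of all genes. The NDUFA4L2 call was kept in 12 of 20 alternative fits and in 6 of the 12 that left out 1 library (adjusted p up to 0.142), the PDK1 call in 18 and 10 (up to 0.0556) and the BNIP3 call in all 20. None of the 12 passed for palbociclib against vehicle after recovery, for the difference of both effects, or in vehicle tumours over time, where 3, 2 and 4 had an unadjusted p under 0.05, against 8.66%, 5.22% and 14.4% of all genes. With no filter on low counts BNIP3, BNIP3L and NDUFA4L2 passed after recovery, PDK1 passed for the difference, and BNIP3 and NDUFA4L2 passed in vehicle tumours over time. Without vehicle tumours 2 and 3 the calls of all 4 at the end of treatment were lost, with BNIP3 at -1.10 (adjusted p = 0.068) and PDK1 at -0.95 (adjusted p = 0.18). The list was chosen with earlier results of these data known.

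**Figure D5:**
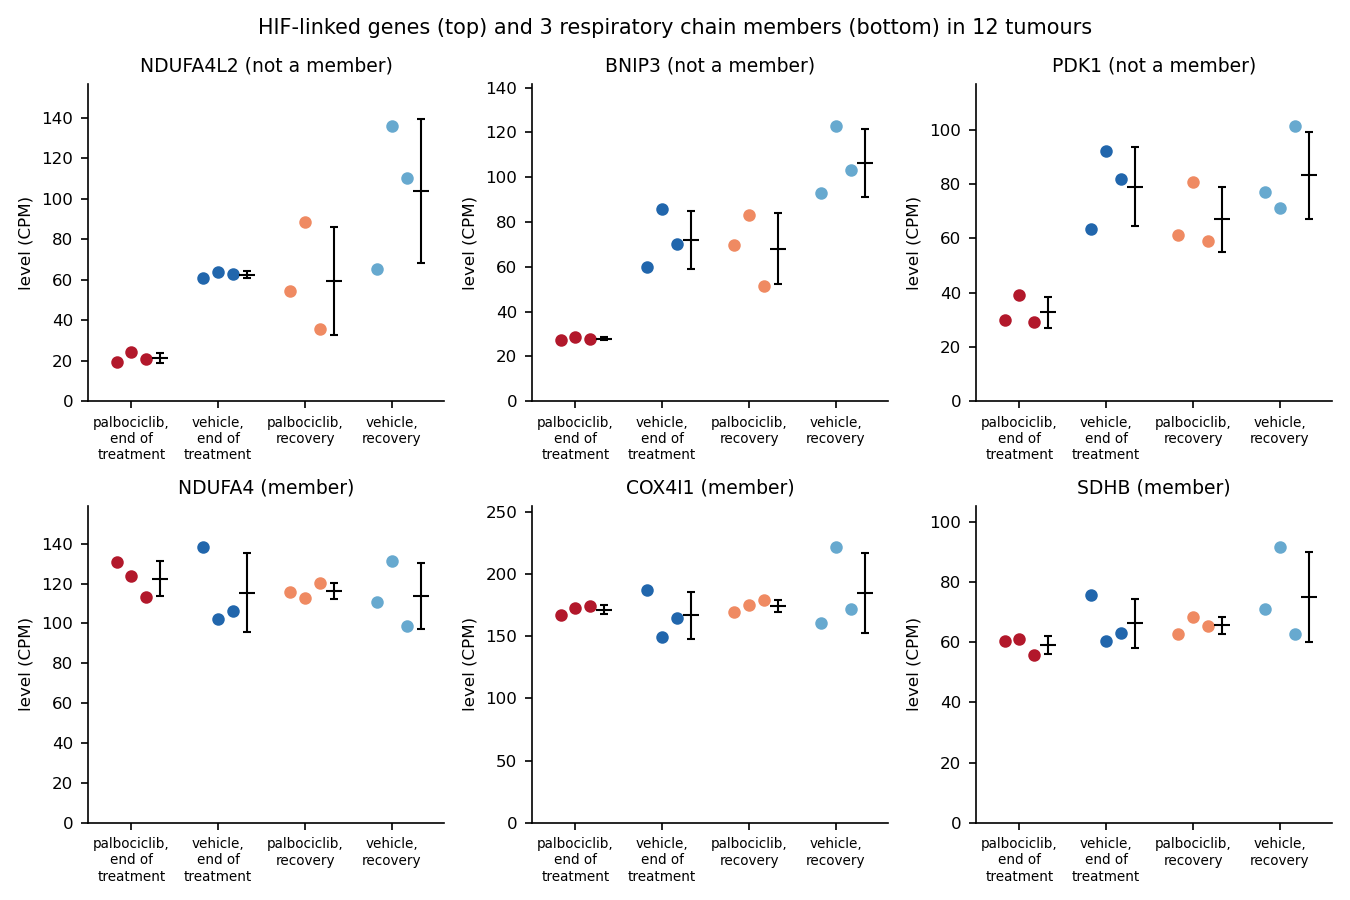
Level (CPM) in the 12 tumours of 3 HIF-linked genes (top) and 3 respiratory chain members (bottom), with the mean and SD of each group of 3. NDUFA4L2, BNIP3 and PDK1 are lower in each palbociclib tumour than in each vehicle tumour at the end of treatment, while NDUFA4, COX4I1 and SDHB overlap.

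None of the other genes that serve the chain passed at the end of treatment, while 1.84% of all genes tested did. Assembly factors had 0 passing of 17 for complex I, 4 for complex II, 6 for complex III, 21 tested for complex IV and 3 tested for complex V. FOXRED1 (-0.26), SDHAF4 (0.39), LYRM7 (0.32), COX18 (0.26) and ATPAF1 (0.14) had the smallest p of these lists, with adjusted p from 0.474 to 0.863. Of 77 mitochondrial ribosomal proteins and 18 genes of the tricarboxylic acid cycle, 0 passed, with medians of -0.00 and 0.06 and the smallest p for MRPL39 (-0.31) and DLST (-0.24). At an unadjusted p under 0.05 there was 1, COX18, while 9.87% of all genes tested were under this threshold. The ribosomal protein list had a median of -0.12 after recovery (60 of 77 below 0, against 9361 of 18628 genes tested). In vehicle tumours over time its median was 0.17 (64 of 77 above 0, against 9206 of 18628), with 0 passing in either. The respiratory chain members had medians of -0.09 and 0.11. The list summed to 2654, 3612 and 2555 CPM in vehicle recovery tumours, with the second tumour again the highest, and to 2648, 2654 and 2809 CPM in palbociclib recovery tumours. Medians of the list without that tumour were not computed.

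The 15 regulators of mitochondrial biogenesis had a median of -0.09 at the end of treatment and 0 passing. The coactivator PPARGC1B was at -0.59 ± 0.17 (adjusted p = 0.12) and the transcription factor NRF1 at -0.47 ± 0.16 (adjusted p = 0.241). Only these 2 of the 15 had an unadjusted p under 0.05, both lower, against 3.18% of all genes higher and 6.68% lower. The mitochondrial transcription factor TFAM was at -0.02 ± 0.14 and PPARGC1A at -0.16 ± 0.26. PPARGC1B passed when only the groups compared were fitted (adjusted p = 0.0435).

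The mitochondrial genome carries the remaining subunits. Its 13 mRNAs summed to 4592, 4375 and 8633 CPM in palbociclib tumours and 4567, 7037 and 5956 CPM in vehicle tumours at the end of treatment, with overlap and 0 passing (median -0.47). After recovery they were at 4234, 5111 and 4970 CPM in palbociclib tumours and 4209, 8522 and 6429 CPM in vehicle tumours. MT-ND3 had the smallest p at the end of treatment (0.73 ± 0.29, adjusted p = 0.386). The ribosomal RNAs MT-RNR1 and MT-RNR2 were at -4.16 ± 1.05 and -2.32 ± 0.88 (adjusted p = 0.0922 and 0.363), at their highest in vehicle tumours 2 and 3. DESeq2's Wald test called MT-RNR1.

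All 10 markers of the tumour cells were present in every library, and KRT5, a basal keratin, was higher with palbociclib at the end of treatment (0.74 ± 0.17, adjusted p = 0.0396), the only marker that passed in any comparison. KRT5 kept this call in 10 of 20 alternative fits, with adjusted p up to 0.761. Of the 10 tumour cell markers, 6 had a log2 fold change above 0 at the end of treatment and 4 below, between -0.60 and 0.74. With an unadjusted p under 0.05, 2 were higher and 1 lower, against 3.18% and 6.68% of all genes. Markers of other cell types were counted on the human genes. The summed leukocyte markers were at 7.83 to 10.8 CPM in palbociclib tumours and 5.63 to 9.78 CPM in vehicle tumours at the end of treatment, mostly CD14, with AIF1 at 0 in all 12 libraries. Muscle markers summed to 0.621 to 1.25 CPM in palbociclib tumours and 0.315 to 0.778 CPM in vehicle tumours, and none of these reached the filter for testing. Adipocyte markers summed to 0.927 to 2.31 CPM in palbociclib tumours and 0.946 to 1.64 CPM in vehicle tumours. Endothelial markers summed to 82.8 to 140.4 CPM in palbociclib tumours and 61.7 to 91.8 CPM in vehicle tumours, mostly PECAM1, with CDH5 at 0 to 0.518 CPM over the 12 libraries. Of the 3 endothelial markers tested, 2 had a log2 fold change above 0 and 1 below (-0.29). PECAM1 was at 88.2, 65 and 114 CPM in palbociclib tumours and 58.7, 43.4 and 62.6 CPM in vehicle tumours. It was higher without overlap, as were 9.39% of all genes, and did not pass (adjusted p = 0.196). Fibroblast markers summed to 122 to 216 CPM in palbociclib tumours and 141 to 224 CPM in vehicle tumours, mostly COL3A1, with LUM at 0 to 0.931 CPM over the 12 libraries.

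After recovery CD14 was at 11, 10.5 and 9.22 CPM in palbociclib tumours and 8.46, 3.93 and 6.61 CPM in vehicle tumours. It was higher without overlap, as were 6.32% of all genes, and did not pass (0.69 ± 0.27, adjusted p = 0.573). The collagen gene COL1A2 was at 2.01, 0.278 and 0.846 CPM in palbociclib tumours and 2.18, 32.6 and 1.82 CPM in vehicle tumours (-3.52 ± 1.09, adjusted p = 0.573). Its high value belongs to the second vehicle recovery tumour, the one in which most members were highest. Fibroblast markers summed to 165, 94.2 and 167 CPM in palbociclib tumours and 131, 167 and 87 CPM in vehicle tumours after recovery. Endothelial markers summed to 112, 115 and 94.7 CPM in palbociclib tumours and 105, 51.8 and 104 CPM in vehicle tumours, so the second vehicle tumour was lowest for these and highest of its group for fibroblast markers. The part of these markers in the results was not tested.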

How the data were processed

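Total RNA from 12 tumours was sequenced from TruSeq RNA libraries, per the labels' protocols. The deposited values are whole-number counts per gene for human and mouse genes in 1 table per tumour. Per the submitters' processing notes, CASAVA 1.8, cutadapt, STAR and edgeR were used with builds GRCh38 and GRCm38; the counting program, its strand setting and its annotation are not stated. Rows that name no gene held 37.0% to 69.1% of a table's counts and were left out, and mouse genes held 14.2% to 25.4% of the gene counts.

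Human counts were fitted with edgeR 4.0.16 (limma 3.58.1, R 4.3.3) by the quasi-likelihood test, with TMM factors on the human total of each library, filterByExpr, and 1 mean for each of the 4 groups over all 12 tumours. Benjamini-Hochberg adjustment ran over the 18628 genes kept, and a gene passed at an adjusted p under 0.05. Log2 fold changes are given ± SE, taken from the F statistic. Depth was 6613880 to 12352064 human counts, and the common biological coefficient of variation was 0.18. Symbols and exons come from GENCODE 29, matched for 57980 of 58243 human identifiers. The edgeR test was checked on simulated counts only for palbociclib against vehicle at each stage, with changes planted only in genes of higher level. No 2 libraries of a group agreed within sampling noise (chi-square per degree of freedom 4.55 to 63.2).

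Alternatives were DESeq2 1.42.0, its size factors in edgeR, no or a stricter filter, only the groups compared, library totals without mitochondrial genes, the mouse share as covariate, and leaving out libraries. Named genes were core and isoform members of each complex, the extremes, those with the smallest p of each complex in each comparison, and the genes of each list that passed or had its smallest p. The members and lists were chosen with earlier results of these data known. A result for 1 complex I member is left out of the text.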

Additional observations from a re-analysis of the deposited data

How the results depend on the processing

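No paired analysis was possible because the labels tie no tumour of one group to a tumour of another: they give no replicate numbers, and the numbers 1 to 3 used here only name the tumours of a group in accession order. Over the alternatives run, edgeR and DESeq2 called 0 members between palbociclib and vehicle at either stage and for the difference of both effects, with smallest adjusted p of 0.138, 0.217 and 0.315. In palbociclib tumours over time 1 member, UQCRC1, was called with only the groups compared (adjusted p = 0.0314) and 1, the same gene, without vehicle recovery tumour 2 (adjusted p = 0.0431), so leaving out 1 tumour each gave 0 to 1 calls. In vehicle tumours over time 1 member, NDUFA8, was called with no filter on low counts (adjusted p = 0.0276), a fit that called 1124 of all genes against 0. Without vehicle tumours 2 and 3 of the end of treatment the median log2 fold change of the members was -0.15 at the end of treatment, 0.075 for the difference and -0.0707 in vehicle tumours over time; the spread of the lone vehicle tumour is taken from the other groups, and the cause was not tested. Leaving out 1 tumour each, the median ran from -0.03 to 0.12 at the end of treatment, from -0.17 to 0.04 after recovery, from -0.21 to 0.0061 for the difference (that highest value without vehicle recovery tumour 2), from -0.03 to 0.02 in palbociclib tumours over time and from -0.02 to 0.21 in vehicle tumours over time. Of 470 complex medians under alternatives 27 moved by more than the spread between tumours and 39 changed sign. These sign changes touched 21 of the 25 complex medians of the main fit. Of 9296 values of single genes 303 without a call moved by at least 1 SE, 41 lost a call, 50 gained one and 0 called values reversed. Sign changes among the single genes numbered 471, in 207 of 470 pairs of gene and comparison. The number of all genes called moved by over 1.5 times: at the end of treatment 343 became 753 with no filter, 689 with only the groups compared, 524 by DESeq2, 147 with the mouse share as covariate and 95 without vehicle tumours 2 and 3; after recovery 1 became 794 with no filter and 20 by DESeq2; for the difference 41 became 320 with no filter, 104 by DESeq2 and 4 without vehicle tumours 2 and 3; in palbociclib tumours over time 526 became 1147 with no filter, 1616 with only the groups compared, 822 by DESeq2 and 339 without vehicle tumours 2 and 3; in vehicle tumours over time 0 became 84 by DESeq2. Leaving out 1 tumour each, these counts ran from 160 (without palbociclib tumour 1 of the end of treatment) to 748 (without vehicle recovery tumour 2) at the end of treatment, from 12 to 161 for the difference and from 205 to 1425 in palbociclib tumours over time, each with its lowest and highest without those same tumours, from 0 to 3 after recovery and from 0 to 6 in vehicle tumours over time. At the end of treatment 173 were called without palbociclib tumour 3 and 196 without vehicle tumour 2. Depth limits the low members: the lowest count of a member in a library was 3, against a median of 527.5.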
